A study of Homo sapiens with 8 samples.

Results

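The nuclear genes for the subunits of respiratory complexes II, III, IV and V and for cytochrome c were examined in melanoma cells with and without hairpins against PGC1α. The list held 41 genes, given by name, and was drawn up with earlier results of these data known; 37 of the 11963 genes measured on the array were on it. These were 3 of 4 listed for complex II, 7 of 9 for complex III, 12 of 12 for complex IV, 14 of 15 for complex V, and cytochrome c. UQCRH and ATP5MF had only a probe set shared with another symbol, and no probe set carried the symbol of SDHB or UQCRFS1 alone, so these 4 genes were not analysed here.

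The respiratory chain sits in the inner mitochondrial membrane. Complex II (succinate dehydrogenase) passes electrons from the citric acid cycle to ubiquinone, complex III hands them to cytochrome c, and complex IV (cytochrome c oxidase) gives them to oxygen. Complexes III and IV pump protons as they work, and complex V (ATP synthase) lets the protons flow back to make ATP. PGC1α is the coactivator made from PPARGC1A, and it acts with factors such as NRF1, NRF2 (GABP) and the estrogen-related receptors (ERR) on genes of this kind.

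RNA came from A375P, an established human melanoma cell line, in which lentivirus had been used to make stable lines with 1 short hairpin RNA each. There were 4 such lines: shGFP and shScr (called shRNA-control in the sample titles) as controls, and PGC1a hairpins 65 and 66. Puromycin selection lasted 48 h and RNA was collected 48 h afterwards. Each line was measured on 2 arrays, and the labels leave unsaid whether they were separate cultures, so the p-values reflect the spread among these 8 arrays alone, which may be partly technical. All 4 lines carried a lentiviral hairpin and had passed puromycin selection, so untreated parental cells are not part of the comparison. In what follows, the array values of an arm are listed with shGFP before shScr and hairpin 65 before hairpin 66, 2 arrays each.

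Signals are linear RMA values, and the median of an array was 137 to 142. The small number of lines and arrays sets the precision. Each arm held 2 lines, and the 2 arrays of a line are not separate lines. The SDs, the limma fit of the arms and the exact permutation p-values nevertheless count the 4 arrays of an arm as separate. The 2 arrays of a line differed by a mean absolute log2 value of 0.10 to 0.13 over all genes. PPARGC1A, the gene the hairpins were aimed at, fell from 556 ± 11.7 to 125 ± 13.9 (SD, n = 4 in each arm), a log2 difference of -2.16 (two-sided exact permutation p = 0.0286, which is the lowest possible with 4 arrays in each arm). Of 9 measured melanoma markers, MITF, SOX10, TYR, S100B and MIA had control means of 3476 or more, while MLANA had 37.5 and TYRP1 98.6, below the array median. Of these 9, 4 fell (MITF by 0.59 on the log2 scale, PMEL by 1.31, TYRP1 by 1.09 and S100B by 0.45). Another 2 rose (MIA by 0.62 and SOX10 by 0.17), beside 10.7% of all genes called lower and 11.6% called higher. TYRP1 also differed between the controls, at 142 in shGFP and 55.5 in shScr (log2 difference 1.35, limma, adjusted p = 0.00110). The summed signal of the 9 was 22933 to 23987 in the controls and 20510.4 to 21967 with the PGC1α hairpins, without overlap. The part of this change in the results was not tested. The summed signal of 25 markers of epithelial, fibroblast, blood and endothelial cells was 4760 to 4919 in the controls and 5193 to 5613 with the PGC1α hairpins; 1 of these markers fell and 3 rose, beside 10.7% and 11.6% of all genes. KRT18 made up most of that sum (2619 in the controls and 3322 with the PGC1α hairpins), while EPCAM, CDH1 and PTPRC stood at 17.9, 16.9 and 20.6 in the controls; the part of other cells in the results was not tested.

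The main question was how far each complex changed when PGC1α was lowered. Of the 37 subunit genes, 24 fell, 0 rose and 13 did not pass the test (limma, adjusted p under 0.05), against 10.7% of all genes called lower and 11.6% called higher. Those shares include dim genes, whereas most subunit genes are bright. With the dimmest 40% of genes dropped, 27 of the 36 subunit genes kept were called lower, against 18.9% of the 7178 genes kept. In either direction, 39.1% of these 7178 were called. In the main fit, all 37 subunit genes had a log2 difference below 0, against 51% of all genes. In 27 of them the 4 arrays with PGC1α hairpins all lay below the 4 control arrays, against 13.6% of all genes; 27.5% of all genes had arms that did not overlap in either direction, and 22.2% were called in either direction. The falls were small, between 1.12-fold and 1.53-fold. The median log2 difference of the 37 was -0.24, beside -0.00 over all genes. Since RNA was taken in bulk, fewer cells with a transcript and less of it per cell cannot be told apart.

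The gene with the largest fall in each complex was SDHD in complex II, UQCRC2 in complex III, COX7B in complex IV and ATP5PO in complex V. UQCRC2, a core protein of complex III, fell from 3509 ± 355 to 2281 ± 35.4 (SD, n = 4 in each arm), to a level 1.53-fold lower. SDHD, a membrane anchor of complex II, fell from 1706 ± 46.8 to 1274 ± 75.3 (SD, n = 4 in each arm). COX7B, a small membrane subunit of complex IV, fell from 12428 ± 647 to 9413 ± 353 (SD, n = 4 in each arm). These 3 genes and ATP5PO had no overlap between the arms. ATP5PO, the stalk subunit also known as OSCP that joins the catalytic head of ATP synthase to its membrane part, fell from 8174 ± 358 to 6269 ± 199.9 (SD, n = 4 in each arm).

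A measure of RNA quality moved with the arms. The 3′ probe set of ACTB exceeded its 5′ probe set by a log2 value of 2.19 ± 0.18 in control arrays and by 2.53 ± 0.11 in arrays with PGC1α hairpins (SD, n = 4 in each arm), without overlap (difference 0.35, two-sided exact permutation p = 0.0286). The same measure for GAPDH was 0.17 and 0.18 (exact permutation p = 0.571). With the ACTB difference as a covariate, the median change of the subunit genes was -0.25, but 4 of the 24 calls (SDHD, UQCRC1, UQCRC2 and UQCR10) were kept, and over all genes the calls went from 2659 to 529. The part of RNA quality in the falls was not tested.

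Other choices also changed the counts. With the 2 arrays of each hairpin averaged into 1 value, which leaves 2 values in each arm, 6 genes passed: SDHD, UQCRC1, UQCRC2, UQCR10, COX7B and ATP5PO. Over all genes, 3.01% were then called lower. Without s_at and x_at probe sets, whose probes may bind several transcripts, 24 genes were left and 15 fell, against 9.38% of all genes left. Of the 24 genes called lower before, 17 were still present and 15 kept the call. UQCRC1 and UQCRC2 of complex III were called in each of 23 alternatives, and UQCR10 in each of the 22 that included it, since its 1 probe set is of the s_at kind.

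**Figure D1:**
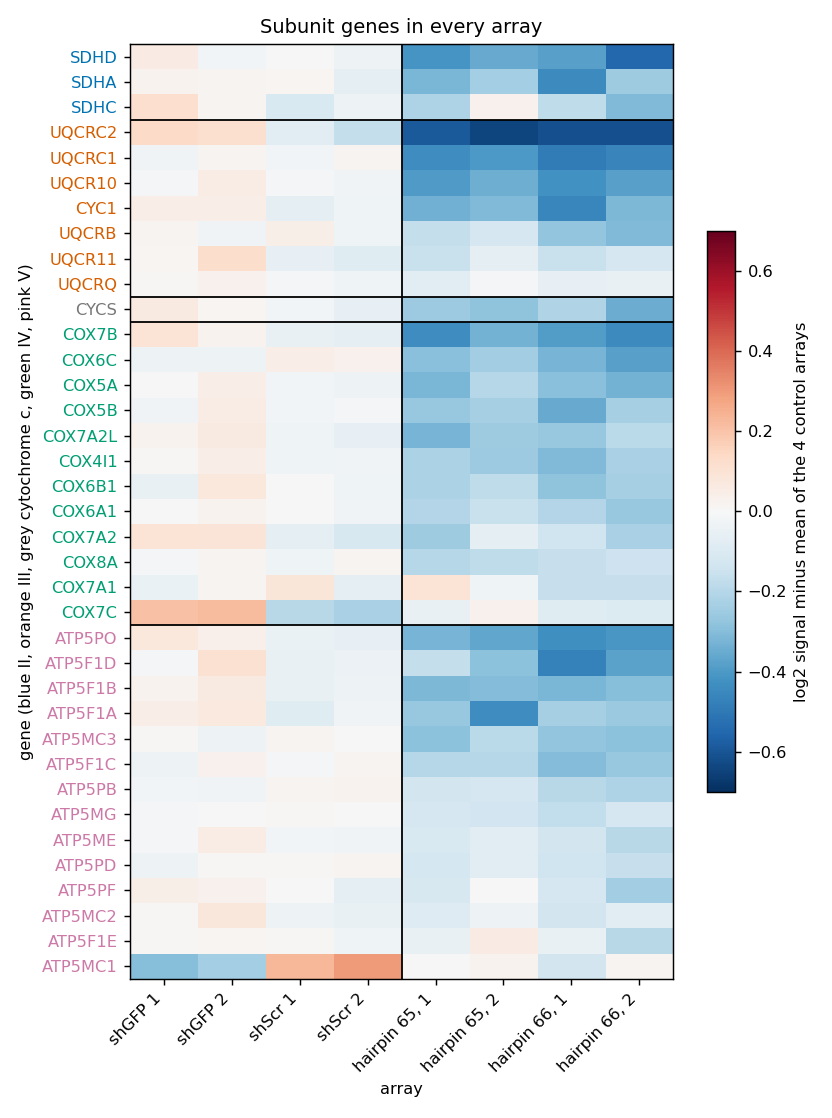
Log2 signal of each of the 37 subunit genes (vertical axis, by complex) in each of the 8 arrays (horizontal axis), minus the gene's mean over the 4 control arrays; blue is lower and red is higher. The 4 columns on the right, with PGC1α hairpins, are blue for most genes of every complex, while COX7C and ATP5MC1 differ more between shGFP and shScr than between the arms.

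The sequences just before the start sites of SDHD, UQCRC2, COX7B and ATP5PO are shown because they are the members that moved most in their complexes, together with 3 stretches that hold an NRF1 motif. They come from RefSeq (build GRCh38.p14), which gave a promoter for 29 of the 37 genes, and are written 5′ to 3′ in the direction of transcription, with motif matches in capitals. SDHD (chr11:112086757-112086872, plus strand) is shown over 116 bases, and UQCRC2 (chr16:21953111-21953360, plus strand), COX7B (chrX:77899218-77899467, plus strand) and ATP5PO (chr21:33915805-33916054, minus strand) over 250 bases that end at the start site. COX6A1 (chr12:120437869-120437928, plus strand), ATP5F1C (chr10:7788117-7788176, plus strand) and ATP5ME (chr4:674320-674379, minus strand) are shown over 60 bases around the match.
SDHD: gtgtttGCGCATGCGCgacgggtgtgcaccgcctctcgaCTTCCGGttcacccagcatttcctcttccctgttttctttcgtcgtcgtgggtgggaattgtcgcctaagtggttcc
UQCRC2: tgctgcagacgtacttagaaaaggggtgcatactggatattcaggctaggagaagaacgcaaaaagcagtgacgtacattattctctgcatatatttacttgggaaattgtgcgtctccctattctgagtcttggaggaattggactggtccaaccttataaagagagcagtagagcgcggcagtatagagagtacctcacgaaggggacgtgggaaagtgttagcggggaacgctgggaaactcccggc
COX7B: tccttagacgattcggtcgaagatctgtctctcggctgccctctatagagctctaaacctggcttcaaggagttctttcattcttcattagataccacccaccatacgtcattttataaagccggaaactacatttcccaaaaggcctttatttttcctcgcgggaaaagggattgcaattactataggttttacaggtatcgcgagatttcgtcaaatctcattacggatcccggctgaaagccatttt
ATP5PO: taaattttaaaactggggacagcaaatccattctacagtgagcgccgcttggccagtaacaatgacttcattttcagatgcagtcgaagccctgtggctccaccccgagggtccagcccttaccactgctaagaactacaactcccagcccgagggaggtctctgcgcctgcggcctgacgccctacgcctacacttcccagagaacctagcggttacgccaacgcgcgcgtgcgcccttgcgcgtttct
COX6A1: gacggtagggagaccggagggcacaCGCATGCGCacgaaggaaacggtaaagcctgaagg
ATP5F1C: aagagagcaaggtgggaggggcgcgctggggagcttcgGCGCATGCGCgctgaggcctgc
ATP5ME: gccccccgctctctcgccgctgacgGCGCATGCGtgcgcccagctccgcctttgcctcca

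The 250 bases before each start were searched on both strands for 5 motifs. The NRF1 core (GCGCATGCG) was found in 6 of the 29 member promoters (SDHD, COX6A1, ATP5F1C, ATP5MC2, ATP5ME and ATP5PF), or 20.7%, against 1.78% of all 27305 promoters and 2.61% of those of measured genes. In SDHD and ATP5F1C the match reads on both strands, with the pair overlapping. The ETS core (CCGGAAG), which GABP binds, was found in 9 of the 29, or 31%, against 8.82% of all promoters and 12.8% of those of measured genes. The NRF1 core was in 3 of 18 promoters of genes called lower and in 3 of 11 of genes not called, and the ETS core in 5 and 4 of these. The full ERR element (TCAAGGTCA) was in 0 of the 29 and in 0.319% of all promoters. Its shorter half-site (AAGGTCA), whose letters lie within the full element, was in ATP5MG alone (3.45%, against 3.46% of all promoters), and the YY1 core (AAGATGGC) was in ATP5PF alone (3.45%, against 1.37%). The windows of UQCRC2, COX7B and ATP5PO hold none of the 5. A match is a description of the letters and not a binding site, and a window without one says only that these letters are not in it.

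Complex II was measured through the catalytic subunit SDHA and the membrane anchors SDHC and SDHD. SDHA, the flavoprotein that oxidises succinate, had signals of 2589, 2582, 2572 and 2439 in the control arrays and 2040.4, 2155, 1868 and 2141 with the PGC1α hairpins. Every array with a PGC1α hairpin lay below every control, and SDHA fell by 0.31 on the log2 scale (SE 0.06, adjusted p = 0.00410). SDHD had signals of 1773, 1686, 1699 and 1666 in the control arrays and 1283, 1336, 1311 and 1166 with the PGC1α hairpins. The arms were again apart, and SDHD fell by 0.42 on the log2 scale (SE 0.06, adjusted p = 0.000588). For SDHC the signals were 2192, 2051, 1877 and 1973 in the control arrays and 1742, 2065, 1787 and 1632 with the PGC1α hairpins. Here the arms overlapped, since array 2 of hairpin 65 lay among the controls, and the log2 difference was -0.17 (SE 0.08, adjusted p = 0.179). Without that array SDHC passed the test (adjusted p = 0.0466). The complex had a median of -0.31, with 2 of 3 genes called lower.

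Some limits attach to these genes. SDHA was read by a probe set of the x_at kind, which may also bind other transcripts, and the genome holds close copies of SDHA. SDHD had a second probe set with a log2 difference of 0.01, at signals of 18.1 in the controls and 18.5 with the PGC1α hairpins, and with the mean of both probe sets it did not pass the test (-0.21, adjusted p = 0.0744).

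Complex III had the most negative median of the 4 complexes, -0.35, and 5 of its 7 genes fell. The core proteins UQCRC1 and UQCRC2, which form the matrix-facing part of the complex, fell most. UQCRC1 had signals of 4079.5, 4205, 4101 and 4209 in the control arrays and 3071, 3143, 2953 and 3012 with the PGC1α hairpins. It fell by 0.45 on the log2 scale (SE 0.05, adjusted p = 0.000117), with the controls within a narrow range and all 4 arrays of the PGC1α hairpins well below it. UQCRC2 had signals of 3839.7, 3773, 3314 and 3109 in the control arrays and 2324, 2237, 2283 and 2278 with the PGC1α hairpins. The arrays of shScr lay between those of shGFP and those of the PGC1α hairpins, and UQCRC2 fell by 0.62 on the log2 scale (SE 0.07, adjusted p = 0.000266). A second UQCRC2 probe set, at 2026 in the controls, gave -0.67.

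CYC1 and the small subunits of complex III divided. CYC1 encodes cytochrome c1, the heme protein that passes electrons to cytochrome c, and its signals were 3755, 3746, 3478 and 3558 in the control arrays and 2879.7, 2927, 2650.4 and 2917 with the PGC1α hairpins. With no overlap, CYC1 fell by 0.35 on the log2 scale (SE 0.05, adjusted p = 0.00137). UQCR10, a small accessory subunit, had signals of 10589, 11100.5, 10644 and 10510.2 in the control arrays and 8146, 8439, 7992 and 8236 with the PGC1α hairpins, and it fell by 0.38 on the log2 scale (SE 0.05, adjusted p = 0.000297). UQCRB, a subunit at the ubiquinone-binding region, fell by 0.22 on the log2 scale (SE 0.06, adjusted p = 0.0214). That call was lost without shGFP array 1, shScr array 1 or either array of hairpin 66 (adjusted p from 0.0532 to 0.0602).

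The remaining accessory subunits of complex III, UQCRQ and UQCR11, did not pass the test. For UQCRQ, which lies next to cytochrome b, the signals were 12557, 12752, 12382 and 12216 in the control arrays and 11844, 12388, 11969 and 12016 with the PGC1α hairpins. One array of hairpin 65 lay among the controls, and the log2 difference was -0.05 (SE 0.04, adjusted p = 0.495). UQCR11 had signals of 7642, 8230.5, 7269 and 7132 in the control arrays and 6793, 7219.5, 6771 and 6956 with the PGC1α hairpins, which also overlapped, with a log2 difference of -0.12 (SE 0.06, adjusted p = 0.167).

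CYCS encodes cytochrome c, the soluble carrier between complexes III and IV. Its signals were 14766, 14262, 13981 and 13615 in the control arrays and 11873, 11640.0, 12210.3 and 11130.0 with the PGC1α hairpins. All arrays with PGC1α hairpins lay below the controls, and CYCS fell by 0.27 on the log2 scale (SE 0.05, adjusted p = 0.00417).

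In complex IV, 9 of 12 genes fell and the median was -0.24. The 4 genes with the smallest p were COX7B, COX6C, COX5A and COX5B. COX7B had signals of 13249, 12637, 11965 and 11860.3 in the control arrays and 9183, 9887, 9471 and 9109 with the PGC1α hairpins, and it fell by 0.40 on the log2 scale (SE 0.06, adjusted p = 0.000731). COX6C, another small membrane subunit, had signals of 8252, 8270.2, 8741 and 8634 in the control arrays and 6915, 7162, 6759.5 and 6506 with the PGC1α hairpins. Here shScr was the higher control, and COX6C fell by 0.31 on the log2 scale (SE 0.05, adjusted p = 0.00194).

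COX5A and COX5B lie on the matrix side of the complex. The signals of COX5A were 11490.2, 11856, 11322 and 11201 in the control arrays and 9182, 9997, 9360.0 and 9101 with the PGC1α hairpins. It fell by 0.29 on the log2 scale (SE 0.05, adjusted p = 0.00301), with the arms apart. COX5B had signals of 12263, 12905, 12286 and 12379 in the control arrays and 10373, 10598, 9739 and 10585 with the PGC1α hairpins, also apart, and fell by 0.27 on the log2 scale (SE 0.05, adjusted p = 0.00362). Its weakest probe set, at 166 in the controls, gave -0.19.

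Of the other nuclear subunits of complex IV, COX4I1, which binds regulatory nucleotides, fell by 0.25 on the log2 scale (adjusted p = 0.00395), COX6B1 by 0.23, COX6A1 by 0.21 and COX8A by 0.17. The COX8A call was lost without shGFP array 2 (adjusted p = 0.0517) or hairpin 65 array 1 (adjusted p = 0.0585). COX7A2L, a COX7A relative that takes part in joining complexes III and IV into supercomplexes, fell by 0.26 on the log2 scale (SE 0.05, adjusted p = 0.00609). COX7A2, the COX7A form of most tissues, had overlapping arms and a log2 difference of -0.17 (SE 0.07, adjusted p = 0.106).

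COX7A1 and COX7C were the members of complex IV with the largest p. COX7A1, the form of heart and skeletal muscle, had signals of 25.1, 26.2, 27.5 and 24.8 in the control arrays and 27.6, 25.4, 23.1 and 23.2 with the PGC1α hairpins. Such signals lie far below the array median, and without detection calls it is unknown whether they are background; the log2 difference was -0.06 (SE 0.07, adjusted p = 0.581). COX7C, a small membrane subunit, had signals of 17230.5, 17475, 13076 and 12774 in the control arrays and 14433, 15305, 14138 and 13989.5 with the PGC1α hairpins. The PGC1α hairpins lay between the controls, below shGFP and above shScr, and the log2 difference was -0.05 (SE 0.11, adjusted p = 0.805).

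Complex V had the median nearest to 0, -0.15, and 7 of its 14 genes fell. With the dimmest 40% of genes dropped, 10 of its genes fell, with ATP5PD, ATP5ME and ATP5MG added. The same filter gave 5 genes of complex III and 9 of complex IV. A variance estimate with trend and robust options also gave 10, beside 5 and 10. Over all genes, 18.9% and 11.5% were called lower in these settings. In the main fit, the genes of complex V were divided by their place in the enzyme, after their values had been seen. In the catalytic F1 head and its stalk, 4 of 5 genes fell, with a median of -0.30. In the peripheral stalk 2 of 4 fell (median -0.15), in the genes of the c ring 1 of 3 (median -0.08), and of the membrane subunits ATP5ME and ATP5MG neither passed the test (median -0.13).

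ATP5F1B, the catalytic beta subunit, had signals of 13312, 13708, 12622 and 12790.4 in the control arrays and 10533, 10623, 10498 and 10666 with the PGC1α hairpins. The arms were apart, and ATP5F1B fell by 0.31 on the log2 scale (SE 0.05, adjusted p = 0.00137). ATP5F1C, the gamma subunit that turns inside the head, had signals of 8355, 8750.0, 8471 and 8684 in the control arrays and 7458, 7457, 6931 and 7117 with the PGC1α hairpins. It fell by 0.24 on the log2 scale (SE 0.05, adjusted p = 0.00570), again without overlap. ATP5F1A, the alpha subunit, fell by 0.30 on the log2 scale (adjusted p = 0.00692), and the delta subunit ATP5F1D fell by 0.33 on the log2 scale (adjusted p = 0.0101). ATP5F1E, the epsilon subunit, had signals of 12162, 12177, 12128 and 11851 in the control arrays and 11665, 12582, 11648 and 10577 with the PGC1α hairpins. It was the F1 gene that did not pass, with the highest value of all 8 arrays in array 2 of hairpin 65 and the lowest in array 2 of hairpin 66, and a log2 difference of -0.06 (SE 0.06, adjusted p = 0.547).

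In the peripheral stalk, which holds the head still, ATP5PO had signals of 8584, 8363, 7897 and 7853 in the control arrays and 6513, 6339, 6056 and 6169.7 with the PGC1α hairpins. It fell by 0.38 on the log2 scale (SE 0.05, adjusted p = 0.000649), with the arms apart. ATP5PB, the stalk's b subunit, fell by 0.17 on the log2 scale (SE 0.05, adjusted p = 0.0305). This was the least stable call: it was lost when any 1 array other than hairpin 65 array 2 was left out (adjusted p from 0.0526 to 0.0783). The stalk genes ATP5PD and ATP5PF did not pass, with log2 differences of -0.13 (SE 0.05, adjusted p = 0.0784) and -0.12 (SE 0.06, adjusted p = 0.211).

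ATP5MC1, ATP5MC2 and ATP5MC3 encode the same mature c subunit of the rotating membrane ring. ATP5MC3 had signals of 17568, 17037, 17683 and 17493 in the control arrays and 14301, 15307, 14382 and 14283 with the PGC1α hairpins. It was the gene of the 3 that passed the test, and fell by 0.26 on the log2 scale (SE 0.05, adjusted p = 0.00343). For ATP5MC1 the signals were 2369, 2473, 3428 and 3582 in the control arrays and 2923, 2964, 2660.1 and 2955 with the PGC1α hairpins. The PGC1α hairpins lay between the controls, here above shGFP and below shScr, and the log2 difference was -0.02 (SE 0.13, adjusted p = 0.946). ATP5MC2 had a log2 difference of -0.08 (SE 0.05, adjusted p = 0.292), and its second probe set, at 22.5 in the controls, gave 0.08.

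Of the 13 genes that did not pass, 4 had a 95% interval that lay below 0 before adjustment: ATP5MG, ATP5PD, ATP5ME and COX7A2. In ATP5MG, a membrane subunit at the dimer interface of ATP synthase, the difference was -0.13 (SE 0.04, adjusted p = 0.0525), and in its neighbour ATP5ME -0.13 (SE 0.05, adjusted p = 0.0962). Both, like ATP5PD, had arms that did not overlap. The other probe sets of ATP5MG gave -0.15, -0.18 and -0.18. With its probe sets averaged, ATP5MG passed the test (-0.16, limma, adjusted p = 0.0173). A p above the threshold does not show that a gene kept its level.

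**Figure D2:**
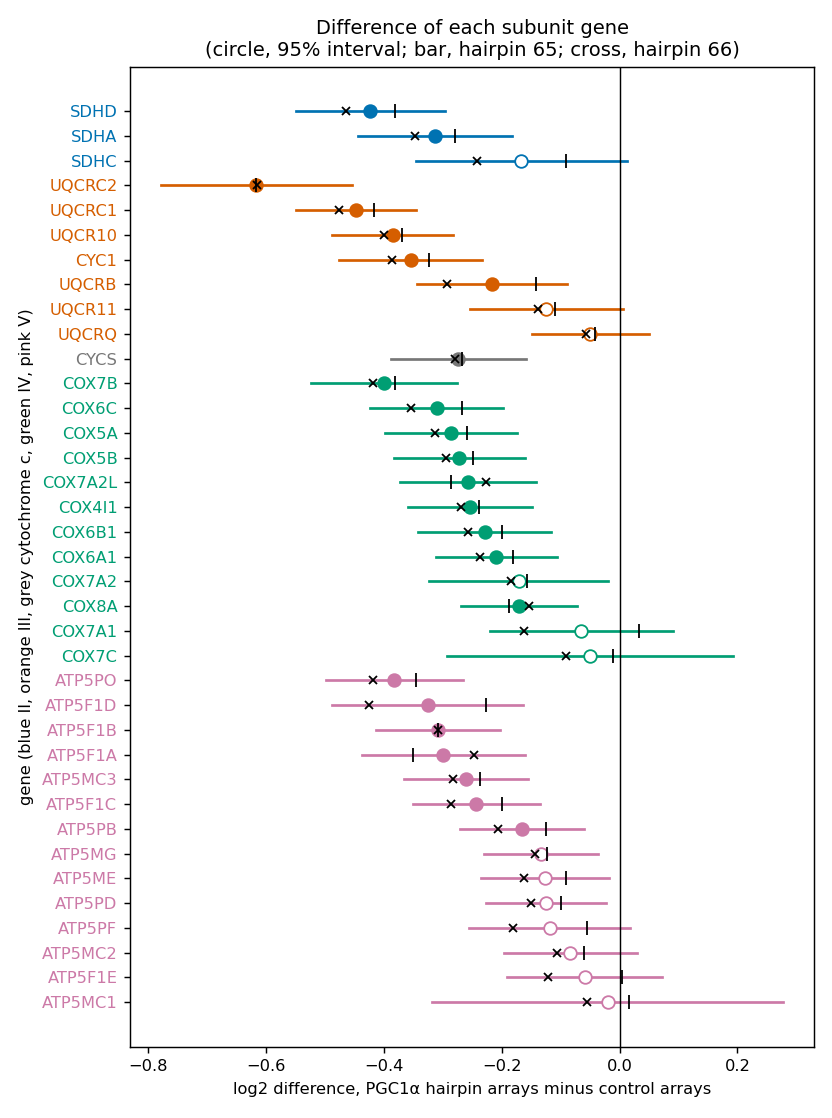
Log2 difference between the 4 arrays with PGC1α hairpins and the 4 control arrays (horizontal axis) for each of the 37 subunit genes (vertical axis, by complex), as circles with 95% intervals, filled where the adjusted p is under 0.05; bars mark hairpin 65 and crosses hairpin 66. All 37 circles lie below 0, and in this fit the open circles gather in complex V, where 7 of 14 genes did not pass.

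The 4 complexes were compared array by array, as the median of their genes after subtracting each gene's control mean; since genes of a complex are not replicates, no test was made of the order. In the control arrays the medians lay between -0.03 and 0.06. Complex III had medians of -0.33 and -0.31 with hairpin 65 and -0.42 and -0.32 with hairpin 66. Complex II had -0.32, -0.24, -0.38 and -0.31 in the same arrays. For complex IV the medians were -0.24, -0.19, -0.27 and -0.23. Complex V had -0.13, -0.13, -0.18 and -0.23. Complex III was therefore farthest from 0 in all 4 arrays, and the order III, II, IV, V held in 3 of 4; in array 2 of hairpin 66, complexes IV and V were nearly level. The median of all genes stayed between -0.02 and 0.01.

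**Figure D3:**
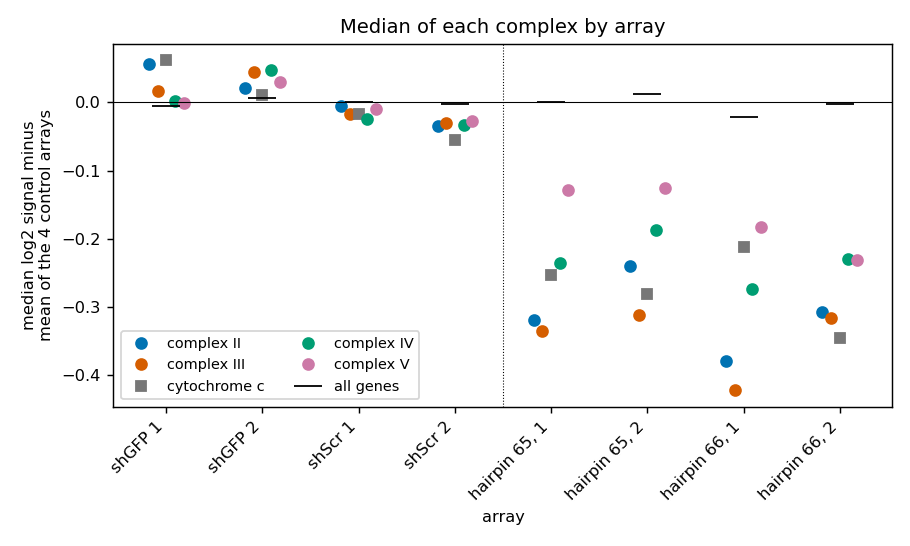
Median over the genes of each complex of the log2 signal minus the control mean (vertical axis) in each array (horizontal axis); cytochrome c is 1 gene, and black dashes are the median of all genes. Every complex lies below 0 in the 4 arrays with PGC1α hairpins, complex III lowest of the 4 complexes in each of them and complex V highest in 3.

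The order was also looked at with the data processed in 23 other ways. It was III, II, IV, V in 20 of them. Some of the 23 changed only the estimate of the spread or the adjustment, so they could not alter the medians or their order. Others left out part of the same arrays. In the main fit the medians of complexes III and II lay close, at -0.35 and -0.31. The SDs of their array medians, pooled within arms, were 0.04 and 0.05. Complex V was not the nearest to 0 without shGFP, where its median was -0.22 and that of complex IV -0.21. Complex II rather than III was lowest when s_at and x_at probe sets were left out, but then SDHD alone stood for complex II. When the probe sets of a gene were averaged, complex II came after complex IV, at -0.21 against -0.24.

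A question of each hairpin alone followed. Both hairpins were set against the same 4 control arrays, so their results are not independent. With hairpin 65, 22 of the 37 genes fell and 0 rose, against 10.4% of all genes called lower and 13% called higher. With hairpin 66, 23 fell and 0 rose, against 10.9% and 11.2% of all genes. Both hairpins lowered 21 of them, against 8.09% of all genes; COX8A was called with hairpin 65 only, and UQCRB and ATP5PB with hairpin 66 only. By complex, hairpin 65 lowered 2 genes of complex II, 4 of III, 9 of IV and 6 of V, and hairpin 66 lowered 2, 5, 8 and 7. The median over the 37 genes was -0.20 with hairpin 65 and -0.26 with hairpin 66. Hairpin 65 gave differences above 0 for COX7A1, ATP5F1E and ATP5MC1, none of which passed the test. The hairpin 65 count was lower without either of its arrays, but that hairpin then stood on 1 array. The share of all genes called in those fits was not taken. A loss particular to these genes can therefore not be told from a loss over all genes.

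Set directly against each other, the hairpins did not differ in any of the 37 genes at an adjusted p under 0.05, as in 0 of 11963 genes (0%). The 37 differences, hairpin 65 minus hairpin 66, ran from -0.10 to 0.20, and their 95% intervals from -0.27 to 0.37. At an unadjusted p under 0.05 there were 3, UQCRB, COX7A1 and ATP5F1D, against 7.1% of all genes, and the smallest adjusted p was 0.653. UQCRB fell by 0.29 with hairpin 66 (adjusted p = 0.00624) and gave -0.14 (SE 0.05, adjusted p = 0.0922) with hairpin 65. These intervals do not show that the hairpins act alike. Of the 37, 5 were lower with hairpin 65 than with hairpin 66 (UQCRC2, COX7A2L, COX8A, ATP5F1A and ATP5F1B), against 4851 of all 11963 genes. The median difference was 0.05 over the 37 and 0.02 over all genes. PPARGC1A itself was at 135 with hairpin 65 and 114 with hairpin 66.

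The control hairpins were compared to show how far such lines differ without a hairpin against PGC1α. Of the 37 genes, 2 were called between shGFP and shScr, against 7.85% of all genes. COX7C was higher in shGFP by 0.42 on the log2 scale (adjusted p = 0.00564; 4.4% of all genes were called higher there). ATP5MC1 was lower in shGFP, with a difference of -0.53 (adjusted p = 0.00468; 3.45% of all genes were called lower there). The next gene was UQCRC2, at 0.25 (adjusted p = 0.0521). Without shScr array 2 the count was 1. When 1 control stood alone, COX7C fell by 0.26 against shGFP (adjusted p = 0.0151) and differed by 0.16 from shScr (adjusted p = 0.106). ATP5MC1 then rose by 0.25 against shGFP (adjusted p = 0.0295) and fell by 0.29 against shScr (adjusted p = 0.0219). For these genes the sign of the difference depended on which control was used.

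**Figure D4:**
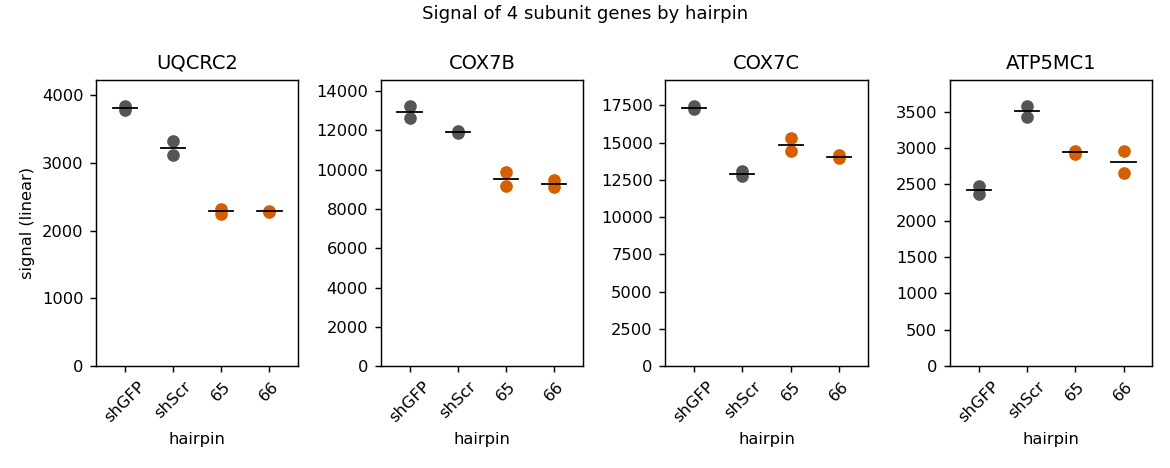
Linear signal (vertical axis, from 0) of UQCRC2, COX7B, COX7C and ATP5MC1 on each array, by hairpin (horizontal axis); points are arrays and lines the mean of 2. UQCRC2 and COX7B are lower with both PGC1α hairpins than with either control, whereas COX7C and ATP5MC1 lie between shGFP and shScr.

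The subunit genes are among the brightest on the array: 33 of 37 lay in the top 10% of genes by mean signal. Within the 37, the Spearman correlation of control signal and log2 difference was 0.17, and 0.25 without COX7A1, the dimmest (36 genes on the same arrays). Some genes had probe sets of very different brightness. COX4I1 changed by -0.25 at a control signal of 16339 and by -0.28 at 257. ATP5F1C gave -0.24 at 8565 and -0.21 at 215. ATP5F1D gave -0.33 at both 3115 and 987. These 3 genes changed by near amounts at each brightness, whereas UQCRB gave -0.22 at 8109.9 and -0.10 at 335. They are examples from 14 genes with over 1 probe set. SDHD gave -0.42 at 1706 and 0.01 at 18.1, COX5B -0.27 at 12458 and -0.19 at 166, and ATP5PO -0.38 at 8174 and -0.30 at 965. ATP5MC2 gave -0.08 at 7828 and 0.08 at 22.5, while UQCRC2 gave -0.62 at 3509 and -0.67 at 2026. Of 62 probe sets for the 37 genes, 60 had differences below 0.

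Genes that work with these complexes were looked at from lists fixed by name. Of 28 measured subunits of complex I, which feeds electrons from NADH into the chain, 14 fell and 0 rose, with a median of -0.18, beside 10.7% of all genes called lower and 11.6% called higher. NDUFA5, an accessory subunit, fell most there, by 1.03 (adjusted p = 1.99e-05), followed by NDUFA3 (by 0.48) and NDUFA10 (by 0.39). A second NDUFA5 probe set, at 17.0 in the controls, gave 0.06. Of 20 measured assembly factors of complexes II to V, 9 fell and 0 rose, with a median of -0.11, beside the same shares of all genes (10.7% and 11.6%). UQCC1, needed to make cytochrome b of complex III, fell by 0.57 on the log2 scale (adjusted p = 0.000104). TACO1, which activates translation of the COX1 subunit, fell by 0.43 on the log2 scale (adjusted p = 0.000289), and LRPPRC, which stabilises mitochondrial transcripts, fell by 0.46 on the log2 scale (adjusted p = 0.000533). A second LRPPRC probe set gave -1.22.

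Among 6 measured further subunits and isoforms, 3 fell and 1 rose, where 10.7% of all genes were called lower and 11.6% higher. HIGD1A and HIGD2A, small proteins that associate with complexes III and IV, fell by 0.43 and 0.39 on the log2 scale. DMAC2L, also known as factor B and tied to ATP synthase, fell by 0.26 on the log2 scale (adjusted p = 0.0201). The gene that rose was ATP5IF1, the inhibitor of ATP synthase, named after its values were seen. Its signals were 1546, 1587, 1673 and 1673 in the control arrays and 1860.3, 2114, 1815 and 1756 with the PGC1α hairpins. The arms did not overlap, and ATP5IF1 rose by 0.22 (adjusted p = 0.0423), opposite in sign to all 37 subunit genes; with every probe set tested singly its adjusted p was 0.0522.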

How the data were processed

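RNA of 8 samples was hybridised to 1-colour Affymetrix expression arrays. The deposited values are linear intensity values, made by the authors with RMA per the submitters' processing notes, version not stated; log2 was taken here. Array image files were not used here. Of 22277 probe sets, 19070 had 1 symbol, 1043 several and 2164 none; the brightest probe set by mean signal stood for each of 11963 genes, and dim genes were kept.

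A 2-arm limma fit compared the 4 PGC1α hairpin arrays with the 4 controls (lmFit and eBayes, limma 3.58.1, R 4.3.3, 6 residual degrees of freedom). A 4-group fit with 4 degrees of freedom gave each hairpin alone, hairpin 65 against 66, and the controls against each other. Benjamini-Hochberg adjustment ran over all 11963 genes, with a threshold of 0.05. The fits were tested on simulated data.

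The members and all lists were chosen with earlier results of these data known. Array values of members are given for complex II, CYCS, the 4 smallest and 2 largest p in complexes III, IV and V, and members called between controls. Other lists name at most 3 called genes with the smallest p. The exceptions are the cell type markers and the genes said to be named after their values were seen.

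Same-numbered arrays did not deviate together (correlations of replicate differences from -0.11 to 0.04), and the fits used no pairing. Whether the numbers mark shared cultures or processing cannot be told from this. Alternatives were other probe set summaries, a signal filter, cyclic loess, quantile normalization, trend and robust variance, no s_at or x_at probe sets, each array or each hairpin left out, a replicate block, averaged arrays, hairpin as a random block, ACTB as a covariate, and all probe sets tested singly.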

Additional observations from a re-analysis of the deposited data

Results flagged for a closer look

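In 7 of 76 groups of 4 arrays (each of the 37 genes, and PPARGC1A, in each arm), 1 array stood far from the other 3 by Dixon's criterion; chance gives about 1 in 20. In the controls, SDHA had a signal of 2439 in shScr array 2, against 2572 to 2589 in the others. ATP5F1E had 11851 in the same array, against 12128 to 12177. ATP5PD had 9993 in shGFP array 1, against 10299 to 10355. With the PGC1α hairpins, CYC1 had 2650.4 in hairpin 66 array 1, against 2880 to 2927. ATP5MC1 had 2660.1 in that array too, against 2923 to 2965. In hairpin 65 array 2, ATP5F1A was low at 9147, against 10294 to 10517, and ATP5MC3 was high at 15307, against 14283 to 14382.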

How the results depend on the processing

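Of 837 pairs of a gene and an alternative, 741 kept the direction and the side of the threshold, 73 lost a call, 12 gained one and 11 changed sign. None of the 11 involved 1 of the 24 called genes. ATP5MC1 without shScr changed sign and passed the test, and it is counted among the 11. The count of genes lower was 24 and ran from 22 to 25 with 1 array left out, beside 8.24% to 9.99% of all genes called lower. It was 15 without s_at and x_at probe sets (24 genes), 6 with averaged arrays and 4 with ACTB as a covariate. In the same order, 9.38%, 3.01% and 2.01% of all genes were called lower in these settings. Without a whole hairpin, 19 (shGFP), 22 (shScr), 20 (hairpin 65) and 17 (hairpin 66) of the 24 calls were kept. In the same order, 8.35%, 12.7%, 5.64% and 5.21% of all genes were called lower, against 10.7% in the main fit. Without shScr 1 gene, ATP5MC1, was higher, where 25.9% of all genes were called in either direction. For hairpin 65 the count was 12 without s_at and x_at probe sets, 3 with ACTB, and 10 to 21 with 1 array left out; for hairpin 66 it was 13, 8 and 16 to 24. Between controls it was 4 with trend and robust variance, 1 without s_at and x_at probe sets, and 1 to 2 with 1 array left out (1 without shScr array 2).

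The median of complex II became -0.21 with all probe sets averaged and -0.42 without s_at and x_at probe sets. That of complex III became -0.31 without shGFP, -0.40 without shScr and -0.29 with ACTB. That of complex V became -0.21 without s_at and x_at probe sets, -0.22 without shGFP and -0.19 without hairpin 65. The cause was not tested. Signs changed for COX7A1 (0.033) and ATP5F1E (0.0043) without hairpin 66, and for ATP5MC2 (0.082) without s_at and x_at probe sets. COX7C was 0.16 without shGFP and -0.13 to 0.023 with 1 array left out. ATP5MC1 was 0.25 without shScr, 0.015 without hairpin 66 and -0.12 to 0.080 with 1 array left out. The replicate block gave 24 genes lower, as without it, and hairpin as a random block (correlation 0.24) kept 23 of the calls. Over all genes, 9.75% and 8.14% were called lower in these settings.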

Other observations

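The regulators listed with these genes did not move as 1 group: of 13 measured, 3 fell (1 of them PPARGC1A, the target of the hairpins), 2 rose and 8 did not pass the test (limma), beside 10.7% of all genes called lower and 11.6% called higher. TFAM, which packages and transcribes mitochondrial DNA, had signals of 2045, 2061, 2135 and 2113 in the control arrays and 971, 1126, 1053 and 989 with the PGC1α hairpins. The arms were far apart, and TFAM fell by 1.02 on the log2 scale (SE 0.06, adjusted p = 3.97e-06). NRIP1, a corepressor of nuclear receptors, had signals of 633, 494, 639 and 597 in the control arrays and 1048, 1018, 1183 and 1037 with the PGC1α hairpins, again apart, and rose by 0.86 (adjusted p = 0.000129).

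The other regulators below were named after their values were seen. ESRRA, which encodes the estrogen-related receptor alpha, had signals of 1221, 1228, 1079 and 1104 in the control arrays and 743, 781, 666 and 663 with the PGC1α hairpins and fell by 0.70 on the log2 scale (SE 0.07, adjusted p = 0.000139). TFB1M, a methyltransferase of mitochondrial ribosomal RNA, rose by 0.32 (adjusted p = 0.0443) with overlapping arms, and its adjusted p was 0.0510 with every probe set tested singly. NRF1, whose motif was searched in the promoters, had a log2 difference of 0.02 (SE 0.09, adjusted p = 0.887), GABPA one of -0.04 (SE 0.10, adjusted p = 0.816) and YY1 one of 0.15 (SE 0.07, adjusted p = 0.132). These are transcript levels and give no measure of the factors' activity.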
